A study of Mus musculus with 5 samples.

Results

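The genes described here were the collagen genes of the mouse. They were taken from a table of read counts per gene by their GRCm38 symbol (Col, a type number, a, a chain number), kept where the gene was protein-coding and had 1 or more counts in any of the 5 libraries. This gave 42 of the 27363 genes with a count, out of 55487 in the table. A further 3 matching genes, Col13a1, Col19a1 and Col28a1, were at 0 in every library. One of the 42, Col4a3bp, matched by its letters alone: it encodes a ceramide transfer protein and no collagen chain, and is left out of the counts that follow. The other 41 were 11 fibrillar collagens, 6 basement membrane (type IV) collagens, 6 type VI collagens and 18 of other classes.

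The libraries came from HT22, an immortalized mouse hippocampal line of neuronal origin, collected 48 h after transfection at 10 nM. One library was from cells given siRNA210 against the long non-coding RNA Gas5, 2 were from cells given siRNA596 against the same RNA, and 2 were from cells given the negative control siRNA (NC). The titles name these controls NC, while another label calls them untreated. The study joined both siRNAs as one knockdown (KD) group. All groups share the line, the dose and the time, and the labels do not say whether the replicates were separate cultures, so the P values measure the spread between these libraries only.

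Collagens are secreted proteins in which 3 chains wind into a triple helix. Fibrillar collagens assemble into the fibrils of connective tissue, type IV collagens into the sheet of the basement membrane, and type VI collagens into beaded filaments beside the cell. In the brain, collagen is mostly found around vessels and in the meninges rather than among neurons.

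Library totals ran from 30660265 to 36492134 counts. Gas5, the targeted RNA, stood at 90.3 and 76.0 CPM (counts per 1000000 reads, with TMM scaling over the 5 libraries) in NC replicates 1 and 2, at 59.6 with siRNA210, and at 65.8 and 179 in siRNA596 replicates 1 and 2. The library labelled siRNA596 replicate 2 therefore went against its label, being the highest of the 5. Each comparison of KD with NC is given with 4 libraries (without it) and with 5. Of 11 neuron markers, 4 had enough counts to be tested with 4 libraries. Tubb3, the highest of the list per kilobase of merged exons in NC, was at 14.9 to 27.1 CPM, a minor part of the list's sum. Snap25, Stmn2 and Nefl were at 0 in every library and Rbfox3 had at most 3 counts. The summed level of the list was 98.8 to 106 CPM in 4 libraries and 53.4 CPM in siRNA596 replicate 2. Of 10 fibroblast and mural cell markers, only Lum was at 0, and 6 had enough counts to be tested with 4 libraries. Their sum was 3108 to 3644 CPM in 4 libraries and 5246 CPM in siRNA596 replicate 2. Vim held most of it, at 2547 to 3166 CPM in 4 libraries and 4358 CPM in siRNA596 replicate 2. Of the other lists, Slc1a3 led the astrocyte markers at 24.4 to 50.1 CPM and Tmem119 the microglia markers at 22.5 to 42.1 CPM, while Aqp4 of the astrocyte, Olig1 and Olig2 of the oligodendrocyte, Itgam and Ptprc of the microglia and Cldn5 of the endothelial list were at 0. Differences between cells in type and in RNA per cell cannot be told apart in such bulk libraries.

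HT22 cells carried a large amount of collagen RNA. Collagen genes took 1.12% and 1.29% of all counts in NC replicates 1 and 2, 1.21% with siRNA210, 1.15% in siRNA596 replicate 1 and 0.614% in siRNA596 replicate 2. The 4 first libraries lay close to each other and the fifth was below them all. The 5 collagen genes with the highest mean CPM in NC held between 73.5% and 74.8% of these counts in every library. They ranked high among all genes by their mean CPM in NC, with Col1a1 at place 5, Col12a1 at 18, Col5a2 at 45, Col1a2 at 66 and Col5a1 at 112. Col1a1 alone held 31.3% to 41.7% of the collagen counts. By class, the summed level was 6527 to 7275 CPM for the fibrillar genes in the 4 libraries other than siRNA596 replicate 2, 1159 to 1289 CPM for type IV, 648 to 780 CPM for type VI and 2477 to 2926 CPM for the other classes. In siRNA596 replicate 2 the same sums were 4933, 597, 609 and 987 CPM.

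**Figure D1:**
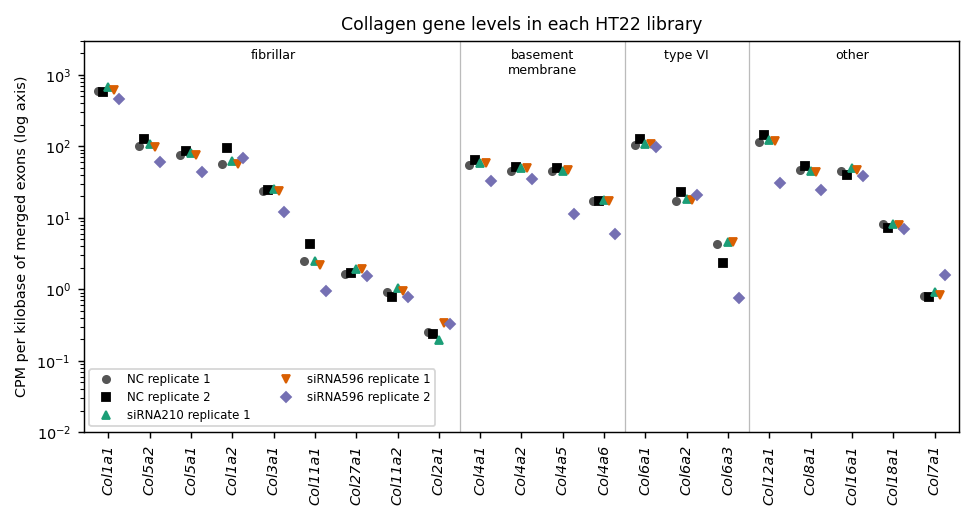
Level of each collagen gene with at least 100 counts in a library, as CPM per kilobase of merged exons on a log axis. Each symbol is 1 library and genes are ordered within their class by the mean of the 2 NC libraries. Col1a1 stands highest at 453 to 673, and siRNA596 replicate 2 (diamonds) lies below the other libraries for most genes.

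Levels spanned several orders of magnitude between collagen genes. Per kilobase of merged exons, the mean level in NC was 590 CPM for Col1a1, followed by 129 for Col12a1, 116 for Col6a1, 114 for Col5a2, 80.4 for Col5a1 and 76.0 for Col1a2. From Col12a1 to Col1a2, the NC libraries of Col12a1, Col6a1 and Col5a2 overlapped, as did those of Col5a1 and Col1a2, so their order was not fixed by these data. It also depended on the length used: per kilobase of the longest transcript Col1a2, at 177 CPM, came next after Col1a1, at 653 CPM, followed by 171 for Col12a1 and 165 for Col5a2. A group of 8 genes of several classes came next, from Col4a1 at 60.1 down to Col4a6 at 17.2 CPM per kilobase. The lowest of the 21 genes with at least 100 counts in a library was Col2a1 at 0.243 CPM per kilobase.

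Among the fibrillar collagens, 9 of 11 had at least 100 counts in a library. Col1a1 and Col1a2, which encode the chains of type I collagen, differed in their behaviour. Col1a1 was at 3905 and 3837 CPM in NC, at 4413 with siRNA210, and at 4057 and 2974 in siRNA596 replicates 1 and 2. Both KD libraries of the 4-library comparison were above both NC libraries, but by a log2 fold change of only 0.13 ± 0.08 (SE, 2 against 2 libraries, adjusted p = 0.967, edgeR). Col1a2 was at 711 and 1179 CPM in NC, at 786 with siRNA210, and at 710 and 841 in siRNA596 replicates 1 and 2. NC replicate 2 was the high library here, and the others lay together. The ratio of Col1a1 to Col1a2 counts was accordingly 5.49, 5.61 and 5.72 in NC replicate 1, siRNA210 and siRNA596 replicate 1, and 3.26 and 3.54 in NC replicate 2 and siRNA596 replicate 2. Set per kilobase of merged exons these ratios ran from 6.16 to 10.8, and per kilobase of the longest transcript from 2.94 to 5.16, so that the size of the excess of Col1a1 depends on the length used.

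Type V collagen, which joins type I fibrils, was carried by Col5a2 and Col5a1. Col5a2 was at 974 and 1209 CPM in NC, 1034 with siRNA210, and 942 and 583 in siRNA596 replicates 1 and 2. Col5a1 was at 638 and 727 CPM in NC, 691 with siRNA210, and 639 and 375 in siRNA596 replicates 1 and 2. Both were lowest in siRNA596 replicate 2, and their count ratio was stable at 1.47 to 1.66 in all 5 libraries. Col5a3, the third chain of the type, had at most 49 counts. Col3a1, the chain of type III collagen, was at 235 and 239 CPM in NC, 250 with siRNA210, and 232 and 119 in siRNA596 replicates 1 and 2. Its gene lies beside Col5a2, at chr1:45311538-45349706 (GRCm38, + strand) against chr1:45374321-45503282 (- strand).

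Col11a1, a chain of the minor fibrillar collagen of cartilage, was at 32.1 and 54.9 CPM in NC, 31.7 with siRNA210, and 28.0 and 12.0 in siRNA596 replicates 1 and 2. It was high in NC replicate 2 and low in siRNA596 replicate 2, with the other 3 libraries together. Its partner Col11a2 was at 6.34 and 5.34 CPM in NC, 7.24 with siRNA210, and 6.45 and 5.34 in siRNA596 replicates 1 and 2. Col27a1, a fibrillar collagen of developing cartilage, was at 21.5 and 21.8 CPM in NC, 24.8 with siRNA210, and 24.8 and 20.1 in siRNA596 replicates 1 and 2. Col2a1, the main cartilage collagen, was at 2.33 and 2.16 CPM in NC, 1.79 with siRNA210, and 3.13 and 2.99 in siRNA596 replicates 1 and 2, on 64 to 112 counts.

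The stretches before the starts of Col1a2 and Col11a1, the members that stood over 1.5-fold higher in NC replicate 2, are given here from RefSeq (GRCm38.p6), outside annotated exons and 5′ to 3′ on the strand of the gene. Capitals mark GGGCGG, the core of the GC box that Sp1 binds, and CCAAT, each as its reverse complement where the match is on the other strand. Col1a2 is at chr6:4505370-4505492 (+ strand) and Col11a1 at chr3:114030290-114030539 (+ strand). The Col1a2 stretch lies inside the gene as GENCODE draws it, from 4504814, between exons of longer transcripts.
Col1a2: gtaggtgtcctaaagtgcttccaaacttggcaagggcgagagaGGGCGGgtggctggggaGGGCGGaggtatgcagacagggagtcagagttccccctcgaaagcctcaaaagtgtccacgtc
Col11a1: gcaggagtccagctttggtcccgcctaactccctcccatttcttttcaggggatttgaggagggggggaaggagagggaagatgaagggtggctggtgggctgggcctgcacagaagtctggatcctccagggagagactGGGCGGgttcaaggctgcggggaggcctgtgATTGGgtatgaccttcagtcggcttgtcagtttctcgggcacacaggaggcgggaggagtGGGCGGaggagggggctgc
Both hold 2 GGGCGG. Over windows from 250 bases before to 50 after the start, searched on both strands and for each motif by itself, GGGCGG was in 22 of the 32 collagen promoters that RefSeq matched and in 14 of the 17 whose gene had at least 100 counts, against 35.7% of all 32851 promoters. CCAAT was in 13 of 32 and 8 of 17 against 37.4%, and TATAAA in 4 of 32 and 2 of 17 against 13.6%. The shares of all promoters were not limited to genes with at least 100 counts, and no such share was taken. The 14 of 17 therefore cannot be read as a trait of collagen genes. These are matches of letters only, and binding was not measured.

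Type IV collagen genes come in pairs that start head to head. The 6 genes form 3 such pairs, of which 2 were read at a high level. The first exons of Col4a1 (- strand) and Col4a2 (+ strand) share 22 bases on chromosome 8. Col4a4 and Col4a3 are 71 bases apart on chromosome 1, and Col4a6 and Col4a5 are 1308 bases apart on chromosome X. The stretches between the starts are given for a pair with hardly any reads (Col4a4 and Col4a3) and an abundant one (Col4a6 and Col4a5), with the same motifs in capitals. The Col4a4 stretch is the whole gap to Col4a3 at chr1:82586850-82586920 (- strand), and the others are chrX:141474077-141474326 for Col4a6 (- strand) and chrX:141475169-141475384 for Col4a5 (+ strand).
Col4a4: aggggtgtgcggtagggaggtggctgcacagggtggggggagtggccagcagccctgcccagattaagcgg
Col4a6: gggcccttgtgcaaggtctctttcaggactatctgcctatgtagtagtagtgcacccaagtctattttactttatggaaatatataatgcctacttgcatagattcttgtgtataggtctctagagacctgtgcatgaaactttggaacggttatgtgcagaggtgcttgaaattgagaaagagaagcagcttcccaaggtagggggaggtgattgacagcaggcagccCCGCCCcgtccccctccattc
Col4a5: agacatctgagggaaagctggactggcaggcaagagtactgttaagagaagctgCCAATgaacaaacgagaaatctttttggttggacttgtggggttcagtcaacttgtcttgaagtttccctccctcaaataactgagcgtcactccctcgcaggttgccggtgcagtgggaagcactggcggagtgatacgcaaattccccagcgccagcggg
The gap between Col4a4 and Col4a3 held none of the 3 motifs, the Col4a6 stretch held GGGCGG on the other strand, and the Col4a5 stretch held CCAAT. The stretches differ in length, at 71 bases for Col4a4, 250 for Col4a6 and 216 for Col4a5. The last 2 cover only part of the 1308 bases between their genes. The motifs therefore cannot be compared between the pairs.

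Col4a1 and Col4a2, the chains of the common basement membrane network, were read at nearly equal levels, with a ratio per kilobase of merged exons of 0.94 to 1.27 over the 5 libraries. Col4a1 was at 415 and 482 CPM in NC, 443 with siRNA210, and 441 and 244 in siRNA596 replicates 1 and 2. Col4a2 was at 303 and 338 CPM in NC, 324 with siRNA210, and 329 and 229 in siRNA596 replicates 1 and 2. Their count ratio was 1.34 to 1.43 in 4 libraries and 1.06 in siRNA596 replicate 2.

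Col4a5 and Col4a6, chains of the networks of smooth muscle and certain epithelia, were also abundant. Col4a5 was at 305 and 331 CPM in NC, 308 with siRNA210, and 311 and 76.8 in siRNA596 replicates 1 and 2. Col4a6 was at 136 and 138 CPM in NC, 143 with siRNA210, and 138 and 46.7 in siRNA596 replicates 1 and 2. Both were nearly level over 4 libraries and fell away in the fifth, and their count ratio was 2.16 to 2.39 in the 4 and 1.64 in the fifth. Col4a3 and Col4a4, chains of the kidney glomerular network, had at most 6 and 8 counts.

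**Figure D2:**
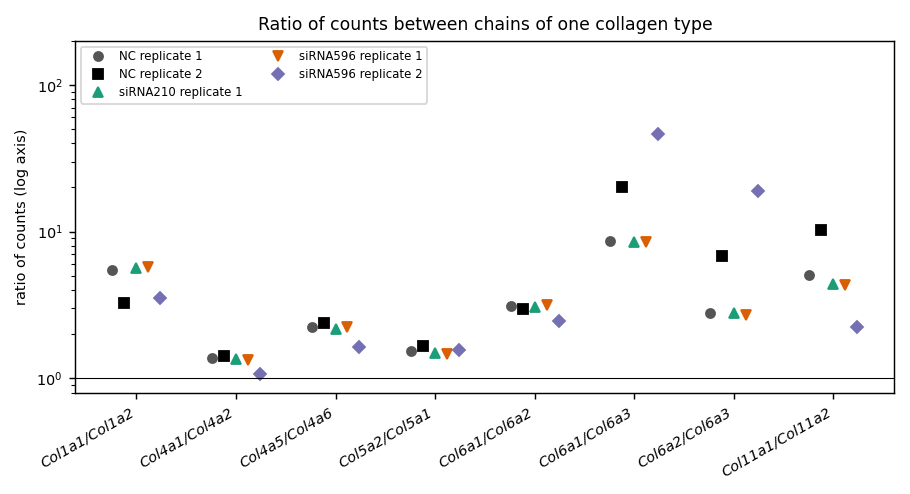
Ratio of counts between chains of the same collagen type in each of the 5 libraries, on a log axis; each symbol is 1 library. The type V ratio varies little over libraries, at 1.47 to 1.66, and the type IV ratios are lowest in siRNA596 replicate 2. The ratio of Col11a1 to Col11a2 runs from 2.24 to 10.3. The type VI ratios over Col6a3 run from 8.54 to 46.6 (Col6a1) and from 2.70 to 18.8 (Col6a2).

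Type VI collagen needs the chains of Col6a1, Col6a2 and one more, commonly that of Col6a3. Col6a1 was at 451 and 561 CPM in NC, 472 with siRNA210, and 473 and 427 in siRNA596 replicates 1 and 2. Col6a2 was at 144 and 190 CPM in NC, 154 with siRNA210, and 149 and 172 in siRNA596 replicates 1 and 2. These neighbours on chromosome 10 varied little, and their count ratio was 2.48 to 3.17. Col6a3 was far lower and less even, at 51.9 and 27.7 CPM in NC, 55.2 with siRNA210, and 55.2 and 9.16 in siRNA596 replicates 1 and 2. It was the member that stood over 1.5-fold lower in NC replicate 2, and it stood lowest against the others in siRNA596 replicate 2. The ratio of Col6a1 to Col6a3 counts was therefore 8.54 to 8.69 in 3 libraries, 20.2 in NC replicate 2 and 46.6 in siRNA596 replicate 2. Per kilobase of merged exons it was 23.3 to 23.7 in the same 3, 55.2 in NC replicate 2 and 127 in siRNA596 replicate 2. The chains that can stand in for Col6a3 were nearly silent, with at most 44 counts for Col6a4, 40 for Col6a5 and 4 for Col6a6.

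Of the other classes, 5 of 18 genes had at least 100 counts. Col12a1, a collagen that binds to the surface of fibrils, was at 1740 and 2188 CPM in NC, 1873 with siRNA210, and 1812 and 465 in siRNA596 replicates 1 and 2. Col16a1, of the same fibril-associated class, was at 305 and 264 CPM in NC, 333 with siRNA210, and 313 and 262 in siRNA596 replicates 1 and 2. Col8a1, a short-chain network collagen, was at 361 and 409 CPM in NC, 352 with siRNA210, and 345 and 189 in siRNA596 replicates 1 and 2. Col12a1 showed the wide gap of siRNA596 replicate 2 while Col16a1 stood there close to NC replicate 2.

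Col18a1, a basement membrane collagen whose end fragment is endostatin, was at 58.05 and 51.4 CPM in NC, 57.1 with siRNA210, and 55.3 and 49.5 in siRNA596 replicates 1 and 2. Col7a1, the anchoring fibril collagen of skin, was at 8.18 and 8.13 CPM in NC, 9.58 with siRNA210, and 8.55 and 16.4 in siRNA596 replicates 1 and 2. Among the genes with at least 100 counts, it had the highest log2 difference of that last library from the other 4, at 0.93. The remaining 20 collagen genes had fewer than 100 counts in every library. Of these, 7 had enough counts to be tested with 4 libraries, and 4 had at most 3 counts in every library. Col4a3bp, the gene that is no collagen, was at 41.4 and 48.5 CPM in NC, 39.1 with siRNA210, and 42.2 and 27.5 in siRNA596 replicates 1 and 2.

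The first comparison asked whether KD of Gas5 changed collagen RNA. With 4 libraries, siRNA210 and siRNA596 replicate 1 were set against both NC. Here 0 of the 28 collagen genes tested passed an adjusted P of 0.05 with DESeq2, beside 0.0063% of the 15867 genes tested. In edgeR's quasi-likelihood test 0 of 28 passed as well, beside 0.0%. An unadjusted P under 0.05 was reached by 2 of 28, both lower in KD, beside 3.3% of all genes. These were Col11a1, with a log2 fold change of -0.55 ± 0.21 (SE, adjusted p = 0.967, edgeR), and Col6a5, with -1.88 ± 0.65 (adjusted p = 0.967, edgeR). Col6a5 rested on few reads: 18 and 40 counts in NC, 8 with siRNA210, and 7 and 2 in siRNA596 replicates 1 and 2. With a 2-fold change as well, the criterion of the study, Col6a5 remained, beside 0.876% of all genes. The median log2 fold change was -0.04 over the 28 genes and 0.00 over all genes, and 12 of 28 were above 0. By class the median was -0.01 for 10 fibrillar, 0.00 for 4 type IV, -0.10 for 5 type VI and -0.09 for 9 other genes.

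Both KD libraries were above both NC libraries for 6 of the 28 genes, namely Col1a1, Col6a3, Col7a1, Col11a2, Col16a1 and Col27a1, beside 16.7% of all genes. Both were below for Col6a5, Col8a1 and Col11a1, beside 16.2% of all genes. The largest fold change among the genes with at least 100 counts and higher in KD was that of Col6a3, at 0.47 ± 0.23 on the log2 scale (SE, adjusted p = 0.967, edgeR), and which was 0.09 without NC replicate 2, the low library, and 0.99 without NC replicate 1. Without NC replicate 2 no collagen gene of 30 had an unadjusted P under 0.05, beside 2.52% of all genes, and without NC replicate 1 there were 11 of 29, beside 16.5%.

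With all 5 libraries, 0 of 29 collagen genes passed the adjusted threshold with edgeR or DESeq2, beside 0.0% of 16142 genes. Col6a5 alone had an unadjusted P under 0.05 (log2 fold change -2.19 ± 0.71 SE, edgeR), beside 0.372% of all genes, and alone passed with the 2-fold change, beside 0.353%. The median log2 fold change over the 29 genes was -0.24, against 0.01 over all genes, and 8 of 29 were above 0. Adding the one library thus lowered the collagen median and widened the errors, with the SE of Col12a1 going from 0.11 to 0.60.

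For siRNA596 by itself (2 libraries against the same 2 NC), 0 of 29 collagen genes passed the adjusted threshold with edgeR or DESeq2, beside 0.0% of 15827 genes. Col6a5 alone passed the unadjusted P, with or without the 2-fold change, beside 0.259% of all genes. The median was -0.31. When siRNA596 replicate 1 was left out, the lone replicate 2 was assumed to vary as the NC libraries do, and 14 of 31 collagen genes passed the adjusted threshold, beside 49.4% of 16772 genes. For siRNA210, which has 1 library, the log2 difference from the NC mean ran from -0.46 to 0.47 over the 21 genes with at least 100 counts, with a median of 0.02. For siRNA596 replicate 1 it ran from -0.63 to 0.48, with a median of -0.02. These differences share the NC libraries.

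**Figure D3:**
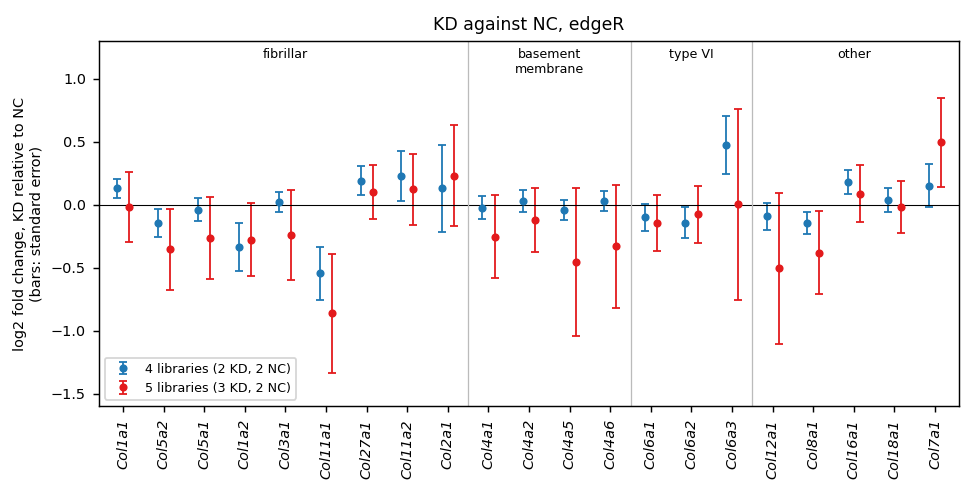
Log2 fold change of KD relative to NC from edgeR for the 21 collagen genes with at least 100 counts in a library, with bars of 1 standard error. Blue points use 4 libraries and red points all 5. The blue points lie between -0.55 and 0.47, and most red points lie lower with wider bars.

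Among the 4 libraries, NC replicate 2 stood apart from the other 3. Over the 21 collagen genes, its log2 difference from the mean of NC replicate 1, siRNA210 and siRNA596 replicate 1 had a median of 0.08, against -0.01 over the 11744 genes of that depth, a description with no test. Col11a1 (0.84) and Col1a2 (0.68) were over 1.5-fold higher, beside 1.69% of all genes, and Col6a3 (-0.96) was over 1.5-fold lower, beside 3.85%.

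The wider gap was that of siRNA596 replicate 2. Against the mean of the other 4 libraries, 18 of the 21 collagen genes were lower, with a median log2 difference of -0.50, against -0.01 over all 11744 genes. Over 2-fold lower were Col6a3 (-2.38), Col12a1 (-2.03), Col4a5 (-2.03), Col11a1 (-1.62), Col4a6 (-1.57) and, just past that fold, Col3a1, which is 6 of 21, beside 17.4% of all genes. No collagen gene was over 2-fold higher, beside 16.6% of all genes. Above 0 were Col7a1 (0.93), Col2a1 (0.35) and Col6a2 (0.11), and Col1a2 was level at -0.01. Scaled by library size only, without TMM, the median of all genes shifted to -0.28, 10 of 21 collagen genes were over 2-fold lower, beside 25.3% of all genes, and Col6a2 turned to -0.16.

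**Figure D4:**
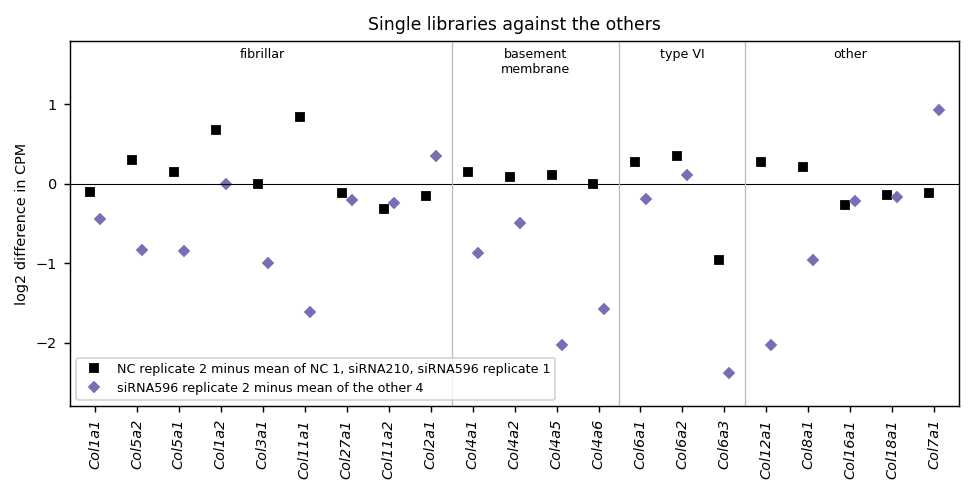
Log2 difference in CPM of NC replicate 2 (squares) from the mean of 3 other libraries, and of siRNA596 replicate 2 (diamonds) from the mean of the other 4, for each collagen gene with at least 100 counts in a library. The squares of Col11a1, Col1a2 and Col6a3 lie farthest from 0, and 18 of 21 diamonds lie below 0.

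Transcript length moved with that gap. In siRNA596 replicate 2, long transcripts were lower among all genes, with a Spearman correlation of -0.65 between the log2 difference and the longest annotated transcript over 11743 genes, and of -0.52 over the 21 collagen genes. These points share the 5 libraries and give no P. Collagen transcripts are long, with a median of 6450 bases against 3377 over all genes. Among genes of 5000 to 7000 bases, the median difference was -0.76 over 1629 genes and -0.50 over 13 collagen genes. This window leaves out longer members, among them Col6a3 (-2.38), Col12a1 (-2.03), Col11a1 (-1.62) and Col7a1. Col7a1, with 9250 bases (0.93), and Col2a1, with 5104 bases (0.35), stood higher in this library. With an offset for transcript length in the 5-library fit, the collagen median was -0.01 in place of -0.24. That offset was fitted to the length trend of these same libraries, so it removes such a trend by construction. The part of length in the low collagen values of this library was not tested.

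**Figure D5:**
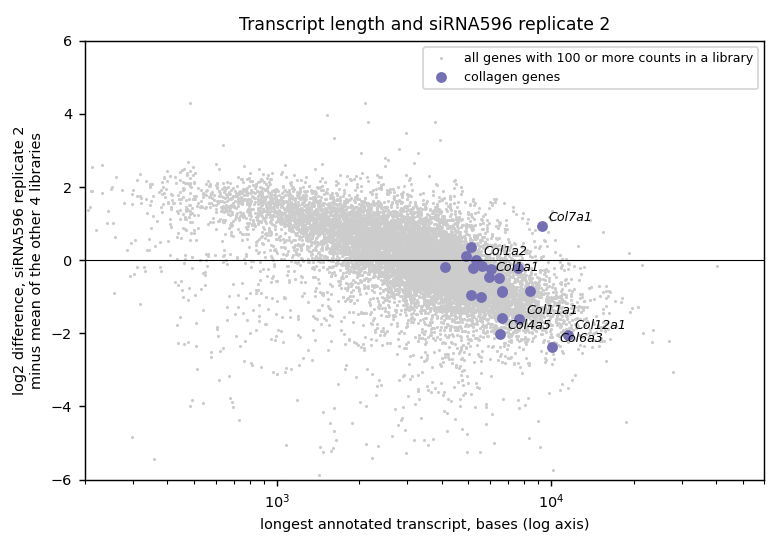
Log2 difference of siRNA596 replicate 2 from the mean of the other 4 libraries against the longest annotated transcript in bases (log axis). Grey points are genes with at least 100 counts in a library and purple points the 21 collagen genes, which lie within the spread of the grey points. Most purple points lie below 0, and Col7a1 is the highest of them at 0.93.

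Genes that make, process or bind collagen were read beside it. The 7 lists, of enzymes, folding and export factors, crosslinking and propeptide enzymes, receptors, basement membrane partners, fibril partners and TGF-beta signalling, held 89 genes, of which 77 were tested with 4 libraries. None passed the adjusted threshold with 4 or with 5 libraries in edgeR or DESeq2. With 4 libraries, 3 higher and 7 lower genes had an unadjusted P under 0.05 in edgeR. This is 10 of 77 beside 3.3% of all genes, and 8 in DESeq2 beside 2.32%. The lists were chosen with earlier results of these data known, so these shares give no independent support. Each of the 7 lower genes was highest in NC replicate 2 among the 4 libraries. With 5 libraries there were 0 in both, beside 0.372% of all genes in edgeR and 0.539% in DESeq2. The median log2 fold change with 4 libraries was 0.05 for 13 collagen-modifying enzymes, 0.07 for 6 folding and export factors, 0.02 for 11 crosslinking and propeptide enzymes, -0.10 for 9 receptors, 0.10 for 13 basement membrane partners, -0.04 for 13 fibril partners and -0.04 for 12 TGF-beta genes.

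Among the enzymes that prepare collagen, levels ran from abundant to absent, with Colgalt2, Adamts3 and Tll2 at 0 in every library. P4hb, the shared subunit of prolyl hydroxylase, was at 2050 and 1478 CPM in NC, 2229 with siRNA210, and 2118 and 1760 in siRNA596 replicates 1 and 2. Lox, which crosslinks fibrils, was at 1174 and 714 CPM in NC, 1200 with siRNA210, and 1178 and 277 in siRNA596 replicates 1 and 2. Lox was low in NC replicate 2 and lower still in siRNA596 replicate 2. Fkbp10, a collagen chaperone, was at 181 and 200 CPM in NC, 212 with siRNA210, and 200 and 380 in siRNA596 replicates 1 and 2.

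Among the receptors, Itgb1, the integrin subunit shared by collagen receptors, was at 795 and 745 CPM in NC, 799 with siRNA210, and 799 and 504 in siRNA596 replicates 1 and 2. Mrc2, which takes collagen up into cells, was at 502 and 455 CPM in NC, 590 with siRNA210, and 548 and 337 in siRNA596 replicates 1 and 2 (log2 fold change 0.25 with 4 libraries, adjusted p = 0.967, edgeR). Itga1, the integrin subunit that binds type IV collagen, was at 17.9 and 26.5 CPM in NC, 15.03 with siRNA210, and 16.4 and 10.9 in siRNA596 replicates 1 and 2 (-0.50, adjusted p = 0.967, edgeR). Both KD libraries of the 4-library comparison lay outside the NC range for Mrc2 and Itga1. These genes were named for their unadjusted P in that same comparison, so this adds nothing to it. Over all genes, both KD libraries were above both NC libraries for 16.7% and below for 16.2%.

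Of the basement membrane partners, Hspg2 (perlecan) was at 1379 and 1592 CPM in NC, 1598 with siRNA210, and 1487 and 469 in siRNA596 replicates 1 and 2. Lama5, a laminin chain, was at 545 and 451 CPM in NC, 617 with siRNA210, and 585 and 165 in siRNA596 replicates 1 and 2. Agrn (agrin) was at 135 and 180 CPM in NC, 123 with siRNA210, and 128 and 56.3 in siRNA596 replicates 1 and 2. All were lowest in siRNA596 replicate 2. With 4 libraries the log2 fold change was 0.27 for Lama5 and -0.33 for Agrn (adjusted p = 0.967 for both, edgeR).

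The fibril partners held the lists' widest fold changes with 4 libraries. Sparc, a collagen-binding matrix protein, was at 1746 and 1955 CPM in NC, 1829 with siRNA210, and 1767 and 2801 in siRNA596 replicates 1 and 2. Postn (periostin) was at 2.39 and 6.64 CPM in NC, 1.96 with siRNA210, and 1.65 and 3.14 in siRNA596 replicates 1 and 2. Fmod (fibromodulin) was at 4.57 and 13.02 CPM in NC, 3.32 with siRNA210, and 4.25 and 14.1 in siRNA596 replicates 1 and 2. The log2 fold changes of Postn and Fmod were -1.33 and -1.22 (adjusted p = 0.967 for both, edgeR), and in each NC replicate 2 was well above NC replicate 1. Thbs1, a matrix protein that can activate TGF-beta, was also over NC replicate 1 in NC replicate 2 but not in siRNA596 replicate 2, at 272 and 579 CPM in NC, 273 with siRNA210, and 277 and 244 in siRNA596 replicates 1 and 2.

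TGF-beta is a known inducer of collagen genes. Ccn2, one of its targets, was at 19.4 and 38.8 CPM in NC, 19.3 with siRNA210, and 15.1 and 137 in siRNA596 replicates 1 and 2. Tgfb2, a ligand, was at 51.0 and 74.4 CPM in NC, 50.3 with siRNA210, and 48.1 and 42.5 in siRNA596 replicates 1 and 2. NC replicate 2 was thus above NC replicate 1 for Ccn2 and Tgfb2, and with 4 libraries each had an adjusted p of 0.967 (edgeR).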

How the data were processed

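The counts deposited by the authors are whole reads per gene, not normalized. Per the labels and the methods of the study, reads were trimmed with Trimmomatic, aligned to GRCm38 with HISAT2 2.1.0, handled with SAMtools 1.7 and counted with featureCounts 2.0.1. The strand setting is not given in the sources used here. At most 2.5% of the exon bases of any collagen gene with at least 100 counts were shared with another gene. The authors' own table of DESeq2 1.26.0 fold changes and P values was not used. Genes were named from the GENCODE annotation of GRCm38 (99.5% of identifiers).

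KD was compared with NC by edgeR 4.0.16 (TMM, filterByExpr, quasi-likelihood F test, Benjamini-Hochberg over all genes tested), in R 4.3.3. The SE of an edgeR log2 fold change was taken as its absolute value over the square root of F. The procedure was tested on simulated data. These held no library that stood apart and no length trend, so that test does not show how the procedure does on the real libraries. DESeq2 1.42.0, other scalings, filters, a length offset and each library left out were alternatives. Levels are TMM-scaled CPM, and levels between genes are per kilobase of merged exons. Single libraries were described by log2 differences without a test. Collagen genes with at least 100 counts in a library, and from each related list the highest gene per kilobase in NC and up to 3 with the smallest unadjusted P under 0.05, are named. One gene that this rule takes in is not reported here. The members and lists were chosen with earlier results of these data known. Promoters are from RefSeq (GRCm38.p6).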

Additional observations from a re-analysis of the deposited data

How the results depend on the processing

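With 4 libraries, no collagen gene passed the adjusted threshold under any alternative run. The count past the unadjusted P and 2-fold criterion was 1 gene, Col6a5, beside 0.876% of all genes. It was 0 with at least 10 counts in every library, beside 0.51%. Col6a5, with 8 and 7 counts in the KD libraries, did not enter that fit. The count past this criterion also changed in every fit with 1 library left out, each of which has 1 library in a group. The median log2 fold change of -0.04 was -0.10 without a filter on low counts, -0.24 with all 5 libraries, and -0.037 to 0.064 when 1 library was left out. With 5 libraries, the count past the unadjusted P and 2-fold criterion was 0 with at least 10 counts in every library, beside 0.277% of all genes. When 1 KD library was left out it was 0 to 1, beside 0.259% to 0.876%. It also changed without NC replicate 2, which left 1 NC library. For siRNA596 against NC, it was 2 without a filter, beside 2.89% of all genes, and 0 to 8 when 1 library was left out, and the count past the adjusted threshold was then 0 to 14. The 8 and the 14 came without siRNA596 replicate 1, when 32.0% and 49.4% of all genes passed. Beyond the numbers of samples and of genes tested that these settings change, the cause was not tested.

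Of 231 values of 21 single collagen genes, 7 turned in direction. Col1a1 went to -0.021 with all 5 libraries. Without NC replicate 2, Col12a1 turned to 0.083 (range over left-out libraries -0.251 to 0.083), Col1a2 to 0.074 (-0.659 to 0.074), Col4a1 to 0.09 (-0.127 to 0.09), Col5a2 to 0.021 (-0.293 to 0.021), Col6a1 to 0.068 (-0.251 to 0.068) and Col6a2 to 0.073 (-0.327 to 0.073). Turns between values that both lay within 1 standard error of 0 were not counted.

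The labels give siRNA596 and NC the same replicate numbers and do not say whether same-numbered libraries were handled together. The deviations of same-numbered libraries had r = 0.09 over 16142 genes. With 2 libraries per group and siRNA596 replicate 2 standing apart, this r cannot decide whether they were paired. With the replicate block, 0 of 29 collagen genes passed the adjusted threshold, 1 passed the unadjusted P with a 2-fold change and the median was -0.42. Over all genes that last criterion gave 426 with the block and 41 without. Counts were under 100 in every library for 20 of 41 collagen genes.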
